A study of Mus musculus with 10 samples.

Results

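The mitochondrial calcium uniporter complex and its partner exchangers were followed in the left ventricle of mice under pressure overload by transverse aortic constriction (TAC), in which the aortic arch is narrowed by surgery. The genes were taken by symbol from the deposited expression table. They were the pore gene Mcu and its paralog Mcub, the gatekeepers Micu2 and Micu3, Smdt1, which encodes the essential uniporter regulator EMRE, the regulator Mcur1, and the exchangers Slc8b1 and Letm1. All 8 were found among 45706 genes, of which 12350 were tested, and all 8 passed the filter on low values. Other members of the MICU family were not analysed here.

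The series held 10 libraries of poly(A) RNA. There were 5 from TAC hearts given placebo, whose treatment is labelled Vehicle, and 5 from TAC hearts given osimertinib, a lung cancer drug that blocks mutant forms of the receptor tyrosine kinase EGFR. The study addressed how osimertinib damages the heart. Every heart carried the TAC load, and no heart without TAC was analysed here. The sources used here give no strain, age, sex, dose or time after surgery. Each library is labelled as all cells of the left ventricle, so that fewer cells of a type and less RNA per cell cannot be told apart. Since no label ties a library to an animal, p-values measure the spread between these libraries, which may be technical.

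Mcu forms the channel of the inner mitochondrial membrane through which calcium enters the matrix, driven by the membrane potential. EMRE holds the channel open and tethers the gatekeepers, which are proteins of the intermembrane space that bind calcium and set the cytosolic level at which uptake starts. Mcub lies beside Mcu in the same channel and lowers its conductance. In cardiac muscle the entering calcium raises the activity of matrix dehydrogenases, and it leaves again mainly through the sodium-calcium exchanger NCLX, encoded by Slc8b1. Overload of the matrix opens the permeability transition pore.

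Promoter sequence is shown for the pore gene Mcu, for Micu2 and Letm1, which differed between the groups in one of the fits below, and for Smdt1, which held a motif match. RefSeq promoter windows (GRCm38.p6) matched 6 of the 8 genes, all but Micu3 and Slc8b1. The lines hold the longest unbroken stretch of the 250 bases before the RefSeq start that lies outside annotated exons, 5′ to 3′ on the gene's strand. They come from chr10:59616693-59616942 (Mcu, minus strand), chr14:57999263-57999322 (Micu2, minus strand), chr15:82345796-82345953 (Smdt1, plus strand) and chr5:33782818-33782967 (Letm1, minus strand). Capitals mark the single motif match.
Mcu: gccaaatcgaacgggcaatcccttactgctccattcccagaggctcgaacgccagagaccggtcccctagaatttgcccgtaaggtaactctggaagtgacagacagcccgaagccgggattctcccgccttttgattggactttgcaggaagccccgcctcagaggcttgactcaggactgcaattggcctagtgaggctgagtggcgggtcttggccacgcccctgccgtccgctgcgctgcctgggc
Micu2: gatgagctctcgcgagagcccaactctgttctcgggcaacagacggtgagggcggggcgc
Smdt1: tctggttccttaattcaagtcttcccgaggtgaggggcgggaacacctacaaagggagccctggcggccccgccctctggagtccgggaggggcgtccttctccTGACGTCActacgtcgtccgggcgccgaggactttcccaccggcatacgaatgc
Letm1: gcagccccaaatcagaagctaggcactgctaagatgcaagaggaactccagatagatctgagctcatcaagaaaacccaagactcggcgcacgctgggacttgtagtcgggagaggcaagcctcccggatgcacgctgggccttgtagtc
The cAMP response element TGACGTCA, the estrogen-related receptor element TNAAGGTCA and the core motif of NRF-1 were searched on both strands in the 250 bases upstream of each start. They stood in 1.55%, 1.14% and 3.74% of 32851 promoters. The palindromic cAMP response element, 146 to 139 bases before the Smdt1 start, was the single match among the 6 genes. A match is a description of letters and not of binding.

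Reads per library, from the spacing of the deposited CPM (reads per gene scaled to a common library total), ran from 15863265 to 21309296. Mitochondrially encoded genes took 38.1% to 63.4% of the reads in placebo libraries and 31.7% to 45.2% in osimertinib libraries. The highest share was in placebo library 5, where each of the 8 genes had its lowest deposited CPM of the placebo group. Osimertinib libraries were higher by a median of 0.27 (log2 fold change over all genes tested) in the deposited CPM. Rescaling each library by the median, over genes, of its ratio to the geometric mean brought this median to 0.01, with a divisor of 0.4545 for placebo library 5 and 0.9257 to 1.344 for the others. Both scales are given below, as deposited CPM and rescaled CPM. The summed rescaled CPM of 10 cardiomyocyte markers lay between 15751 and 35970 in placebo libraries and between 30148 and 51211 in osimertinib libraries, with none of the markers at 0. Cardiac muscle markers were thus present in every library. The 7 atrial muscle markers summed to 517 to 1412 rescaled CPM in placebo libraries and 710 to 4713 in osimertinib libraries, with Bmp10 at 0 in all of them. Nppa was the largest part of the mean sum, at a mean of 694 in placebo and 1303 in osimertinib libraries. By an atrial score, the mean over the 6 tested atrial markers of log2 rescaled CPM centred on each gene, 4 libraries stood apart. The score was -2.68 and -3.00 in placebo libraries 3 and 4 and -2.62 and -2.74 in osimertinib libraries 3 and 5, against 0.006 to 3.71 in the other 6. The sum did not order the libraries in the same way. Placebo library 3 had a sum of 1097, above placebo libraries 2 (805) and 5 (1084). The main results on the 8 genes and the ratios are therefore also given below within the 4 and within the other 6 libraries. Macrophage and leukocyte markers summed to 182 to 267 rescaled CPM in placebo and 257 to 336 in osimertinib libraries, with 2 of 11 called higher on rescaled CPM. Endothelial markers summed to 1318 to 2019 and 1236 to 1525, with 2 of 8 called lower. For comparison, 10.4% of all tested genes were called higher and 10.5% lower on rescaled CPM. Of the tested fibroblast, smooth muscle and blood markers none was called on that scale, and the lymphocyte markers were all too low to test. No measured marker of these lists other than Bmp10 was at 0 in every library, and the part of cell composition in the results below was not tested beyond the values given.

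Levels of the 8 genes were compared per kilobase of annotated exon, in rescaled CPM per kilobase (mean ± SD, n = 5 per group). Smdt1 stood highest, at 38.2 ± 12.1 in placebo and 48.5 ± 8.05 in osimertinib libraries, above 96.1% of the genes tested in placebo. Micu2 came next at 8.01 ± 1.30 and 11.8 ± 2.30. Slc8b1 stood at 3.33 ± 0.345 and 2.82 ± 0.367, Letm1 at 3.12 ± 0.820 and 5.04 ± 1.43, and Mcur1 at 2.68 ± 0.370 and 3.95 ± 1.08. The pore gene was lower than these, with Mcu at 1.41 ± 0.161 in placebo and 1.48 ± 0.0896 in osimertinib libraries, above 32.9% of tested genes in placebo. Mcub followed at 1.16 ± 0.190 and 1.35 ± 0.304, and Micu3 was lowest at 0.703 ± 0.0664 and 0.539 ± 0.120.

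Over all 10 libraries the ranges of Smdt1 and Micu2, of Micu2 and Letm1, of Slc8b1 and Mcu, and of Mcub and Micu3 did not overlap. The ranges of the other neighbours did. Letm1 was above Mcur1 in 9 of 10 libraries, Mcur1 above Slc8b1 in 4 of 10, and Mcu above Mcub in 8 of 10. The order depended in part on the length used. With the longest transcript as length (mean over all 10 libraries) Mcu stood at 3.50 and Micu3 at 1.54 rescaled CPM per kilobase, which put Micu3 above Mcub. With that length the ranges of Slc8b1 (2.98 to 4.71) and Mcu (2.83 to 3.95) overlapped. So did those of Micu2 (8.81 to 20.1) and Letm1 (3.83 to 12.1), and those of Mcub (0.873 to 1.71) and Micu3 (0.890 to 1.96).

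**Figure D1:**
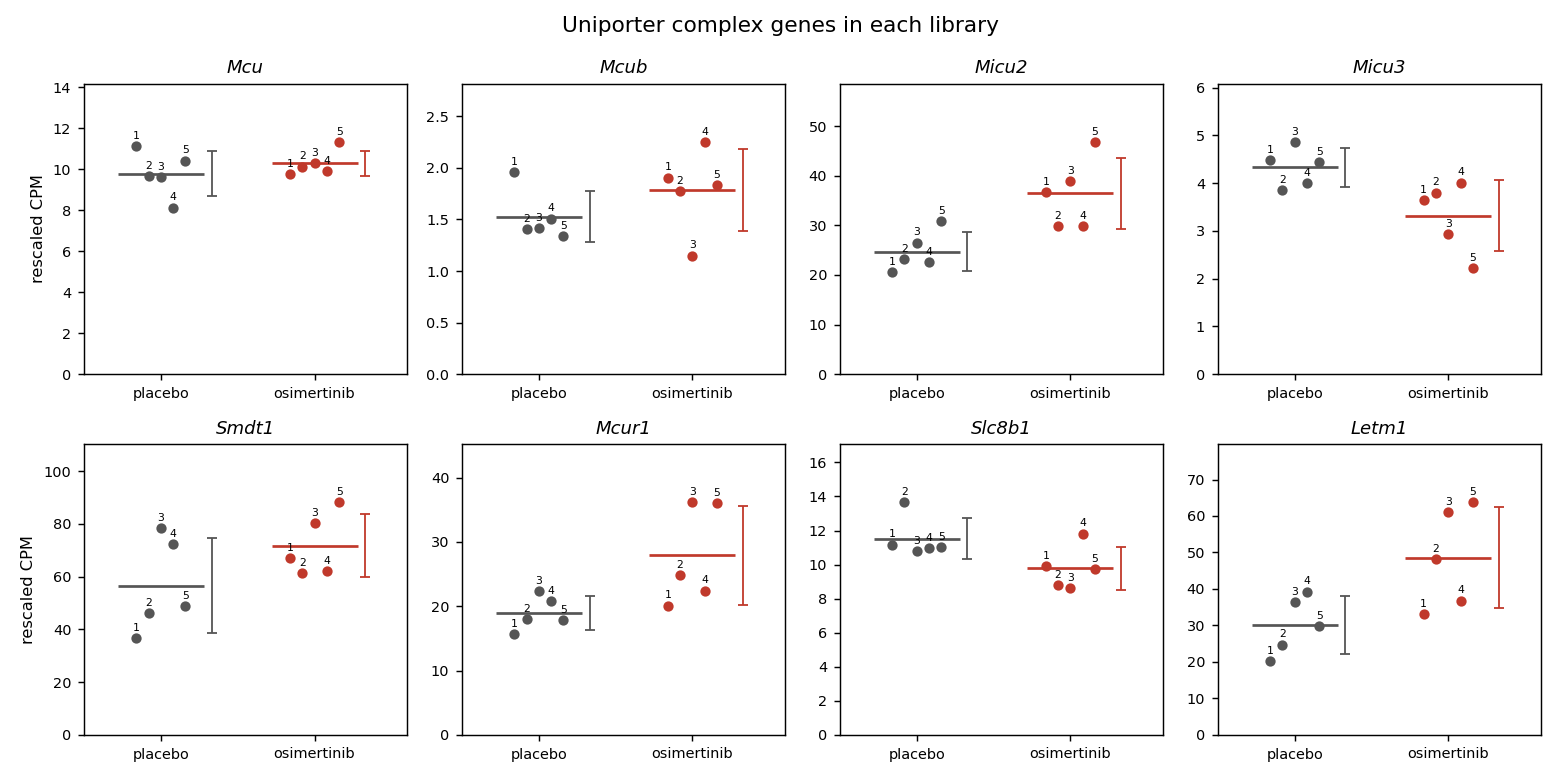
Rescaled CPM (vertical axis, starting at 0) of the 8 uniporter complex genes in each placebo (grey) and osimertinib (red) library; numbers are the replicate numbers, horizontal lines the group means and bars the SD (n = 5 per group). Micu2 and Letm1 are mostly higher in osimertinib libraries, Micu3 mostly lower, and Mcu is nearly level between 8.13 and 11.3.

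In the test across all genes, none of the 8 genes was called on the deposited CPM (two-sided limma-trend test of log2(CPM + 0.5), Benjamini-Hochberg adjusted p under 0.05). On that scale 4 of the 8 had an unadjusted p under 0.05 in limma, as did 21.6% of all tested genes, and 6.74% of all tested genes were called, 6.62% higher and 0.13% lower. On the rescaled CPM, Micu2 and Letm1 rose and none fell, where 10.4% of all tested genes were called higher and 10.5% lower, and 4 of the 8 again had an unadjusted p under 0.05, near the 38.3% of all tested genes that did. Voom on estimated reads of the same libraries, with the same rescaling, also called 2 of the 8. Its share of all tested genes called was close to the 20.8% called on rescaled CPM in either direction. The median log2 fold change of the 8 was 0.51 deposited, between -0.11 and 0.96, and 0.27 rescaled, between -0.36 and 0.68. A single gene, Micu2, had groups that did not overlap in deposited CPM, as did 5.33% of all tested genes in that direction and 0.081% in the other. None of the 8 had such groups in rescaled CPM, where 5.72% of all tested genes did in the higher and 6.82% in the lower direction.

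**Figure D2:**
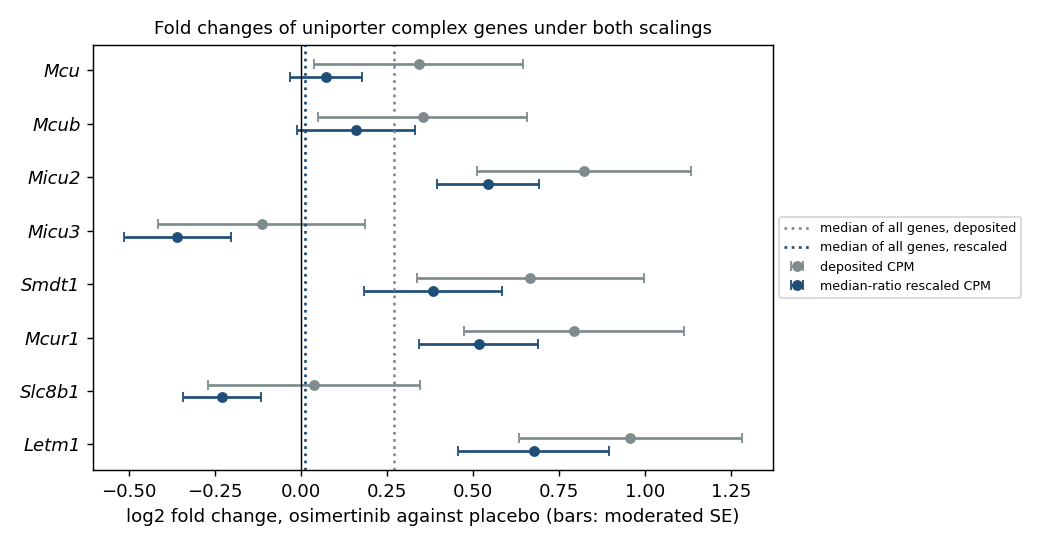
Log2 fold change of osimertinib against placebo (horizontal axis) for each uniporter complex gene on deposited CPM (grey) and rescaled CPM (blue), with the moderated SE as bars and dotted lines at the median of all genes tested (0.27 and 0.01). Letm1 and Micu2 lie farthest to the right on both scales, while Slc8b1 lies at 0.04 on one and -0.23 on the other.

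The pore gene Mcu (ENSMUSG00000009647, GRCm38 chromosome 10, 59446984 to 59616692, minus strand) had 101 to 238 estimated reads per library. Its deposited CPM were 11.7, 13.0, 10.0, 7.52 and 4.74 in placebo libraries 1 to 5 and 9.58, 12.4, 11.9, 11.8 and 11.6 in osimertinib libraries 1 to 5. After rescaling, the values were 11.1, 9.66, 9.63, 8.13 and 10.4 in placebo and 9.77, 10.1, 10.3, 9.92 and 11.3 in osimertinib libraries. The low deposited value of placebo library 5 thus came to lie inside its group, and the groups overlapped on both scales. On deposited CPM its log2 fold change was 0.34 ± 0.30 (SE, adjusted p = 0.555). On rescaled CPM it was 0.07 ± 0.11 (SE, adjusted p = 0.639), with a 95% interval of -0.16 to 0.30. A change of Mcu anywhere inside this interval is compatible with these libraries, and the smallest change that could have been called was not computed. Mcu was among the evener of the 8, with a coefficient of variation of 11.4% between placebo libraries and 6.04% between osimertinib libraries, against a median of 18.8% over all tested genes in placebo.

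Mcub (ENSMUSG00000027994, chromosome 3, 129914960 to 129970206, minus strand), the paralog that lowers conductance, was the most thinly covered, with 13 to 45 estimated reads. Its 13 reads in placebo library 5 have an exact 95% Poisson interval of 6.92 to 22.2, which covers counting error only. Rescaled CPM were 1.96, 1.41, 1.42, 1.51 and 1.34 in placebo and 1.91, 1.77, 1.15, 2.25 and 1.84 in osimertinib libraries, with placebo library 1 above its group and osimertinib library 3 below all others. For Mcub the log2 fold change was 0.16 ± 0.17 (SE, adjusted p = 0.524) on rescaled and 0.35 ± 0.30 (adjusted p = 0.540) on deposited CPM. The rescaled 95% interval of -0.21 to 0.54 leaves room for a change of moderate size in Mcub that this depth could not show.

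Smdt1 (ENSMUSG00000022452, chromosome 15, 82338959 to 82349091, plus strand), the gene with the motif match above, encodes the tether between pore and gatekeepers and had 474 to 1677 estimated reads. Its rescaled CPM were 36.8, 46.1, 78.4, 72.4 and 48.9 in placebo and 67.0, 61.3, 80.4, 62.1 and 88.1 in osimertinib libraries. Placebo libraries 3 and 4 were as high as the osimertinib libraries, and the others were lower, which made Smdt1 the most variable of the 8 between placebo libraries (coefficient of variation 31.7%). Its log2 fold change of 0.67 ± 0.33 (SE) on deposited CPM had an adjusted p of 0.221 in limma, and that of 0.38 ± 0.20 on rescaled CPM an adjusted p of 0.176.

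Mcur1 (ENSMUSG00000021371, chromosome 13, 43538393 to 43560191, minus strand) encodes an inner membrane protein described as a scaffold factor for uniporter assembly. Rescaled CPM were 15.7, 18.0, 22.3, 20.8 and 17.9 in placebo libraries and 20.1, 24.9, 36.1, 22.4 and 36.1 in osimertinib libraries. Osimertinib libraries 3 and 5 stood above the rest, and osimertinib library 1 lay within the placebo range. The log2 fold change was 0.79 ± 0.32 (SE, adjusted p = 0.119) on deposited and 0.52 ± 0.17 (adjusted p = 0.0521) on rescaled CPM, so that Mcur1 did not pass on either. Leaving out placebo library 3, osimertinib library 1 or osimertinib library 4 brought the rescaled adjusted p to 0.0444, 0.0265 and 0.0433.

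The gatekeeper gene Micu2 (ENSMUSG00000021973, chromosome 14, 57916261 to 57999262, minus strand) encodes a protein that pairs with another of its family and keeps the channel shut at resting calcium. Its deposited CPM were 21.7, 31.1, 27.6, 20.9 and 14.0 in placebo libraries and 35.9, 36.5, 44.9, 35.3 and 48.1 in osimertinib libraries, from 298 to 867 estimated reads. Every osimertinib library was above every placebo library on this scale. Rescaled CPM were 20.5, 23.2, 26.5, 22.6 and 30.8 in placebo and 36.7, 29.8, 38.9, 29.8 and 46.8 in osimertinib libraries. Here placebo library 5 reached above osimertinib libraries 2 and 4.

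The deposited means of Micu2 were 23.1 ± 6.62 in placebo and 40.1 ± 5.91 in osimertinib libraries (SD, n = 5), and its log2 fold change was 0.82 ± 0.31 (SE, limma adjusted p = 0.0935). The rescaled means were 24.7 ± 4.01 and 36.4 ± 7.11, and the log2 fold change was 0.54 ± 0.15 (SE, limma adjusted p = 0.0292), with a 95% interval of 0.22 to 0.87. Micu2 passed the test on rescaled CPM in 6 of the 10 fits that left out a library. It did not pass without placebo library 1 (adjusted p = 0.0694), placebo library 2 (0.0684), osimertinib library 3 (0.0801) or osimertinib library 5 (0.0760). On deposited CPM it passed without placebo library 2 (adjusted p = 0.0423) or placebo library 5 (0.0367).

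The other gatekeeper gene, Micu3 (ENSMUSG00000039478, chromosome 8, 40307458 to 40386308, plus strand), encodes a family member best known from nervous tissue and was the lowest per length of the 8. It had 41 to 96 estimated reads. Rescaled CPM were 4.49, 3.85, 4.87, 4.00 and 4.44 in placebo and 3.64, 3.80, 2.92, 4.01 and 2.22 in osimertinib libraries. Of the osimertinib libraries, 4 lay below every placebo library, and the remaining one, library 4, lay just above the 2 lowest placebo libraries. The log2 fold change was -0.11 ± 0.30 (SE, adjusted p = 0.870) on deposited CPM. On rescaled CPM it was -0.36 ± 0.15 (SE, limma adjusted p = 0.109), so that Micu3 did not pass the test on either scale. Without osimertinib library 5, the lowest, the deposited value turned to 0.028.

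Slc8b1 (ENSMUSG00000032754, chromosome 5, 120511168 to 120534024, plus strand), the calcium efflux exchanger, had rescaled CPM of 11.2, 13.6, 10.8, 10.9 and 11.0 in placebo libraries. In osimertinib libraries the values were 9.89, 8.82, 8.63, 11.8 and 9.73, of which all but library 4 lay below every placebo library. The log2 fold change was 0.04 ± 0.31 (SE, adjusted p = 0.960) on deposited CPM and -0.23 ± 0.11 (SE, adjusted p = 0.159) on rescaled CPM. The sign of the Slc8b1 difference therefore depended on the scaling, and neither value passed the test.

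Letm1 (ENSMUSG00000005299, chromosome 5, 33739673 to 33782817, minus strand) encodes an inner membrane protein that exchanges potassium for protons and has also been described as a calcium-proton exchanger. Its deposited CPM were 21.3, 33.2, 38.0, 36.3 and 13.6 in placebo and 32.5, 58.9, 70.5, 43.7 and 65.4 in osimertinib libraries, from 289 to 1275 estimated reads. Rescaled CPM were 20.2, 24.7, 36.4, 39.3 and 29.8 in placebo and 33.2, 48.2, 61.1, 36.8 and 63.7 in osimertinib libraries. Osimertinib libraries 2, 3 and 5 were above every placebo library, whereas osimertinib libraries 1 and 4 lay within the placebo range.

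The log2 fold change of Letm1 was 0.96 ± 0.32 (SE, limma adjusted p = 0.0557) on deposited CPM, the highest of the 8. On rescaled CPM it was 0.68 ± 0.22 (SE, limma adjusted p = 0.0466), with means of 30.1 ± 7.92 and 48.6 ± 13.8 (SD, n = 5). The rescaled call was lost without placebo library 1 (adjusted p = 0.105), placebo library 2 (0.107), placebo library 5 (0.0668), osimertinib library 2 (0.0775), osimertinib library 3 (0.118) or osimertinib library 5 (0.120). On deposited CPM Letm1 passed without placebo library 2 (adjusted p = 0.0474), placebo library 3 (0.0312), placebo library 4 (0.0493) or osimertinib library 1 (0.0286).

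The cardiomyocyte markers moved with several of these genes. In summed rescaled CPM the markers stood at 15751, 21313, 33076, 35970 and 21125 in placebo libraries 1 to 5 and at 30148, 35546, 46304, 30548 and 51211 in osimertinib libraries 1 to 5. Placebo libraries 3 and 4 and osimertinib libraries 3 and 5 were thus the highest of their groups for the markers, and the same libraries were the highest of their groups for Smdt1, Mcur1 and Letm1. Of the 10 markers, 5 were called higher on deposited and 2 on rescaled CPM, against 6.62% and 10.4% of all tested genes. With a cardiomyocyte marker score as a covariate on rescaled CPM, the log2 fold change of Letm1 was 0.07 (limma adjusted p = 0.850), that of Mcur1 0.09 and that of Smdt1 -0.17 (adjusted p = 0.512). Micu2 stood at 0.37 (adjusted p = 0.327) and Micu3 at -0.18 (adjusted p = 0.699) in that fit. It called 0 of the 8 genes, and 123 of all 12350 genes tested. The part of cardiomyocyte content in these differences was not tested beyond this covariate, which itself differs between the groups.

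Placebo libraries 3 and 4 and osimertinib libraries 3 and 5 were also those with the low atrial score. With an atrial marker score as a covariate on rescaled CPM, Letm1 stood at 0.81 (limma adjusted p = 0.000391), Mcur1 at 0.63 (0.000394), Micu2 at 0.59 (0.00354) and Smdt1 at 0.50 (0.00657). Micu3 stood at -0.42 (adjusted p = 0.0284) in that fit. That fit called 4 of the 8 genes higher and 1 lower, and 4839 of all 12350 genes tested.

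Within the 6 libraries with a higher atrial score (3 placebo, 3 osimertinib), the rescaled log2 fold change was 0.65 ± 0.19 (SE, limma adjusted p = 0.0537) for Letm1, 0.38 ± 0.17 (adjusted p = 0.184) for Micu2, 0.37 ± 0.14 (adjusted p = 0.108) for Mcur1 and 0.53 ± 0.14 (adjusted p = 0.0421) for Smdt1. Smdt1 was the single one of the 8 genes called in these libraries. There 1352 of all 12350 genes tested were called, and 28.1% had an unadjusted limma p under 0.05. Mcu stood at -0.061 and Micu3 at -0.14. Within the 4 libraries with a low score (2 placebo, 2 osimertinib), Letm1 stood at 0.72 ± 0.12 (SE, limma adjusted p = 0.00404), Mcur1 at 0.73 ± 0.12 (adjusted p = 0.00420), Micu2 at 0.79 ± 0.14 (adjusted p = 0.00611) and Micu3 at -0.69 ± 0.22 (adjusted p = 0.0469). Smdt1 stood at 0.16 and Mcu at 0.28 there. In these 4 libraries 3518 of all 12350 genes tested were called, and 41.8% had an unadjusted limma p under 0.05. Letm1 thus differed by nearly the same amount in both sets, whereas the values of Smdt1, Micu2, Mcur1 and Micu3 were unlike between them. Whether the sets differ from each other was not tested. The split by atrial score was made after the data were seen. With 2 libraries in each group, the p-values of the low-score fit rest mostly on variance shared between genes (a prior of 6.38 degrees of freedom).

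Gatekeeper genes were set against the pore gene by ratios of CPM within each library, which do not depend on scaling between libraries. These are ratios of RNA reads that are not corrected for gene length. Their change between groups can be read, but they do not give the proportion of the proteins. The Micu2/Mcu ratio was 1.84, 2.40, 2.75, 2.78 and 2.95 in placebo libraries and 3.75, 2.94, 3.78, 3.01 and 4.13 in osimertinib libraries. The groups met at one point, where placebo library 5 (2.9505) lay just above osimertinib library 2 (2.945). The mean ratio was 2.55 ± 0.440 in placebo and 3.52 ± 0.521 in osimertinib libraries (SD, n = 5), 1.39-fold higher by the mean log2 ratio, with all 5 osimertinib libraries above the placebo mean. The log2 difference of 0.47 ± 0.16 (SE) had an exact permutation p of 0.0159 (two-sided, over all assignments of the 10 libraries to groups of 5) and an adjusted p of 0.0635 over the 8 ratios computed. Among 12309 genes set against Mcu in the same way, 8.54% were higher at an unadjusted exact p under 0.05, and 1.88% had groups that did not overlap in that direction.

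The Micu3/Mcu ratio was 0.403, 0.398, 0.505, 0.492 and 0.426 in placebo and 0.372, 0.375, 0.284, 0.404 and 0.195 in osimertinib libraries. Osimertinib library 4 was the only one to reach into the placebo range. The means were 0.445 ± 0.0504 and 0.326 ± 0.0859 (SD, n = 5), and the log2 difference was -0.49 ± 0.21 (SE, exact permutation p = 0.0238, adjusted p = 0.0635). Of all genes set against Mcu, 18.9% were lower at that unadjusted level, and 7.08% had groups that did not overlap in that direction.

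Set against each other, the gatekeepers separated the groups. The Micu3/Micu2 ratio was 0.219, 0.166, 0.184, 0.177 and 0.144 in placebo and 0.0992, 0.127, 0.0751, 0.134 and 0.0473 in osimertinib libraries, so that every osimertinib library lay below every placebo library. The means were 0.178 ± 0.0272 and 0.0967 ± 0.0363 (SD, n = 5). The log2 difference of -0.96 ± 0.29 (SE) had an exact permutation p of 0.00794, the smallest that these assignments can give, and an adjusted p of 0.0635. The background here was high. Of all genes set against Micu2, 50.5% were lower at an unadjusted exact p under 0.05 and 0.772% higher, and 21.6% had groups that did not overlap in the lower direction. Their median log2 difference was -0.54.

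The log2 differences of these ratios were also taken within the sets of libraries split by atrial score. Micu2/Mcu differed by 0.45 in the 6 libraries with a higher score and by 0.51 in the 4 with a low score. Micu3/Mcu differed by -0.093 in the 6 and by -1.08 in the 4, so that its lower mean rested mainly on the 4 libraries. Micu3/Micu2 differed by -0.54 in the 6 and by -1.60 in the 4. Of the ratios taken up below, Mcub/Mcu (0.41 in the 6, -0.30 in the 4) and Smdt1/Mcu (0.60 and -0.13) changed sign between the sets. Letm1/Mcu differed by 0.72 and 0.43, Mcur1/Mcu by 0.45 in both, and Slc8b1/Mcu by -0.17 and -0.54.

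The other ratios to the pore gene did not pass either. Mcub/Mcu was 0.157 ± 0.0235 in placebo and 0.174 ± 0.0428 in osimertinib libraries (SD, n = 5; exact permutation p = 0.532). Smdt1/Mcu went from 5.96 ± 2.42 to 6.94 ± 0.819 (exact permutation p = 0.325). Mcur1/Mcu stood at 1.97 ± 0.464 and 2.69 ± 0.622, and Letm1/Mcu at 3.17 ± 1.17 and 4.68 ± 1.12 (exact permutation p = 0.0794 for both, adjusted p = 0.106). Placebo libraries 3 and 4 lay within the osimertinib range for Mcub/Mcu, Mcur1/Mcu and Letm1/Mcu, and above it for Smdt1/Mcu.

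Slc8b1/Mcu, the ratio of the efflux exchanger gene to the pore gene, was 1.00, 1.41, 1.12, 1.35 and 1.06 in placebo libraries. In osimertinib libraries it was 1.01, 0.870, 0.837, 1.19 and 0.857, with 4 of 5 below the placebo mean (exact permutation p = 0.0635, adjusted p = 0.106). In all, 0 of 8 ratios passed the adjusted threshold with the exact permutation test, and 3 had an unadjusted p under 0.05. This count depended on single libraries. Without osimertinib library 2, Micu2/Mcu and Micu3/Micu2 passed (adjusted p = 0.0317 for both), and without osimertinib library 4, those 2 ratios (0.0423 and 0.0317), Micu3/Mcu (0.0317) and Slc8b1/Mcu (0.0476) did. With 0.5 CPM added to both genes, Micu2/Mcu and Micu3/Micu2 passed as well, both with an exact adjusted p of 0.0317.

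**Figure D3:**
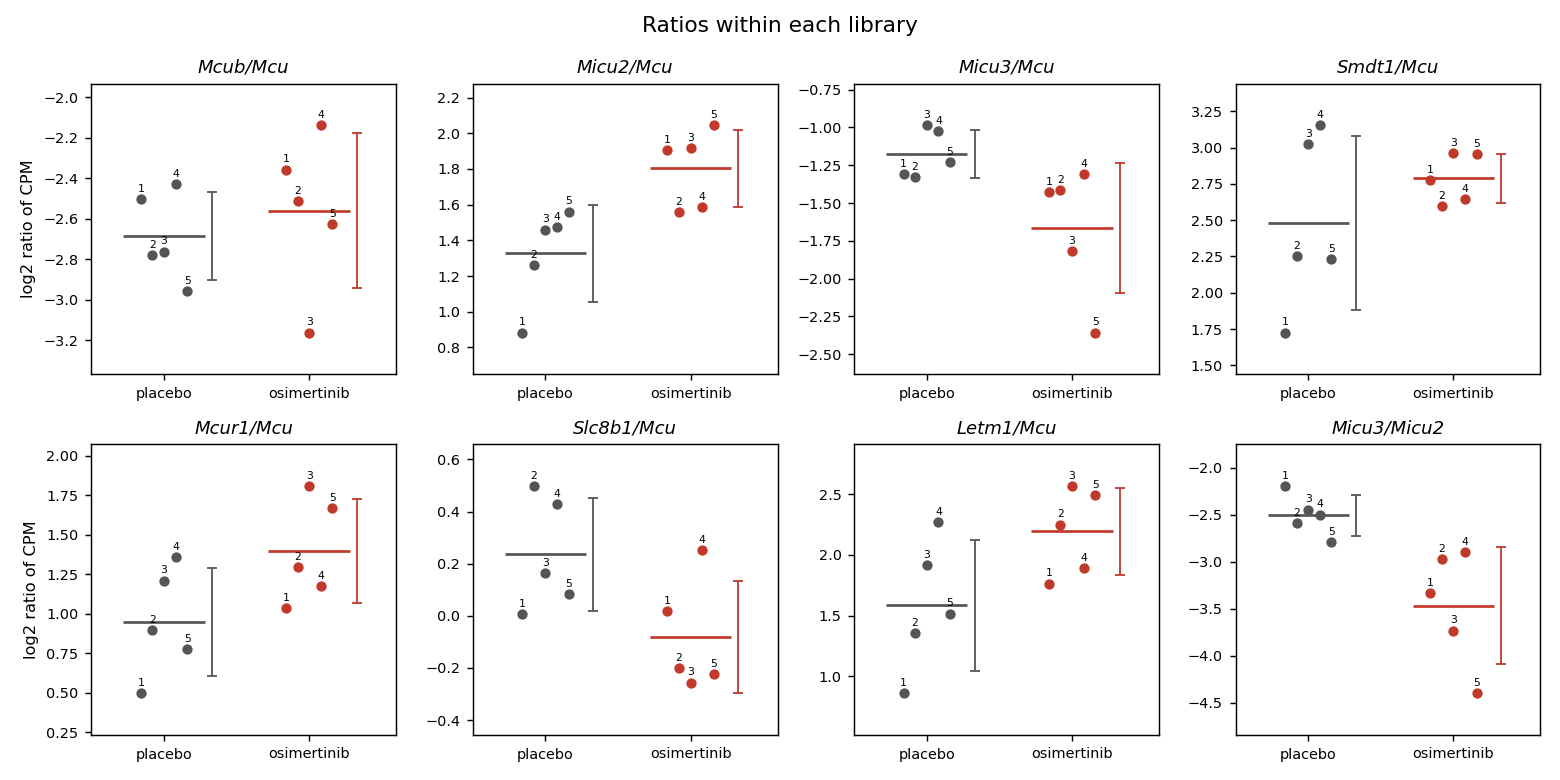
Log2 ratio of CPM of 2 genes within each library (vertical axis) for the 8 ratios computed, in placebo (grey) and osimertinib (red) libraries; numbers are the replicate numbers, lines the group means and bars the SD (n = 5 per group). Micu3/Micu2 is the panel in which the groups do not overlap, and in Micu2/Mcu they meet at 1 library on each side.

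Other genes of mitochondrial calcium handling were read in 4 lists holding 41 genes, of which 40 were tested. On deposited CPM 13 of the 40 rose and none fell, where 6.62% of all tested genes were called higher and 0.13% lower. On rescaled CPM 15 rose and 2 fell, where 10.4% of all tested genes were called higher and 10.5% lower. At an unadjusted p under 0.05 limma gave 19 on deposited and 25 on rescaled CPM, against 21.6% and 38.3% of all tested genes. The medians of the 40 log2 fold changes were 0.61 and 0.33, against 0.27 and 0.01 over all genes tested. The deposited count of 13 dropped to 5 when placebo library 1, osimertinib library 3 or osimertinib library 5 was left out, and to 7 without osimertinib library 2. The rescaled count of 15 fell to 6 without placebo library 1, 4 without placebo library 2 or osimertinib library 5, and 3 without osimertinib library 3. Of the genes called, 5 of 13 on deposited and 3 of 17 on rescaled CPM were called in each of the 10 fits that left out a library. The other 8 and 14 all lost their call without osimertinib library 3. In the fits without placebo library 5 the counts were 11 and 12 higher. With the cardiomyocyte marker score as a covariate 0 of the 40 were called higher, in a fit that called few of all the genes tested.

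Matrix calcium effectors had a median log2 fold change of 1.12 deposited and 0.84 rescaled. With the cardiomyocyte marker score as a covariate on rescaled CPM none of them was called higher, in a fit that called few of all the genes tested. Among all tested genes 6.62% were called higher on deposited and 10.4% on rescaled CPM. The effectors rose most often of the lists, with 5 of 9 called higher on each scale in the fits without that covariate. These were the subunits of the calcium-sensitive NAD-dependent isocitrate dehydrogenase, Idh3b (log2 fold change 1.49 deposited and 1.20 rescaled, limma adjusted p = 0.00476 and 0.0220), Idh3a (1.34 and 1.06) and Idh3g (1.12 and 0.84). The oxoglutarate dehydrogenase gene Ogdh stood at 1.39 and 1.10. Ppif, which encodes cyclophilin D, the regulator of the permeability transition pore, stood at 1.15 and 0.87. Idh3a kept its call on both scales in each of the 10 fits that left out a library. Idh3b and Ogdh did so on deposited CPM, and on rescaled CPM in 6 and 7 of them. Idh3g and Ppif kept it in 6 each on deposited CPM, and in 5 and 4 on rescaled CPM. The remaining 4 genes did not pass.

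Of 16 genes of the outer membrane and its contacts with the reticulum, 5 rose on each scale. Over all tested genes, 6.62% were called higher on deposited and 10.4% on rescaled CPM. The voltage-dependent anion channels, through which calcium crosses the outer membrane, were Vdac1 at a log2 fold change of 1.49 deposited and 1.21 rescaled (limma adjusted p = 0.00410 and 0.0140), Vdac2 at 1.14 and 0.86 and Vdac3 at 1.07 and 0.78. Hspa9, the mitochondrial chaperone that links these channels to calcium release channels, stood at 1.13 and 0.85, and the mitofusin gene Mfn2 at 1.06 and 0.78. Leaving out single libraries kept the call of Vdac1 on both scales in 10 of 10 fits and that of Vdac2 in 6. For Vdac3, Hspa9 and Mfn2 it was kept in 5 fits each on deposited CPM, and in 7, 4 and 9 on rescaled CPM. The release channels of the reticulum did not pass, with Itpr1 at -0.17, Itpr2 at -0.32 and Itpr3 at -0.43 on rescaled CPM (these 3 were chosen after their values were seen).

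Of 10 inner membrane carriers, 3 rose on deposited CPM, and 3 rose and 2 fell on rescaled CPM. On those scales 6.62% and 10.4% of all tested genes were called higher, and 10.5% were called lower on rescaled CPM. Ghitm, an inner membrane protein described as a calcium-proton exchanger, stood at 1.31 deposited and 1.03 rescaled (limma adjusted p = 0.00919 and 0.0140) and passed in each of the 10 fits that left out a library on both scales. The calcium-regulated aspartate-glutamate carriers were Slc25a12 at 1.01 and 0.73 (adjusted p = 0.0447 and 0.0220) and Slc25a13 at 1.24 and 0.97, of which Slc25a13 passed on deposited CPM alone (adjusted p = 0.0136 and 0.0575). Of the calcium-dependent ATP-Mg carriers, Slc25a23 rose on rescaled CPM (0.36, limma adjusted p = 0.0432) and Slc25a25 fell (-0.74, limma adjusted p = 0.0320). Letmd1, related in sequence to Letm1, also fell on rescaled CPM (-0.36, adjusted p = 0.0407), where Letm1 rose. Slc25a23 and Letmd1 each passed in 2 of the 10 fits that left out a library on that scale, and Slc25a12 and Slc25a25 in 6. On deposited CPM Slc25a12 passed in 5 and Slc25a13 in 6.

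Of the 6 genes that process EMRE or act beside the uniporter, Phb was not analysed here, and the other 5 were tested. None was called on deposited CPM, where 4 of the 5 had an unadjusted limma p under 0.05, a level that 21.6% of all tested genes reached. On rescaled CPM 2 rose, the subunits of the matrix protease that degrades surplus EMRE, Afg3l2 (0.68 ± 0.20 SE, limma adjusted p = 0.0359) and Spg7 (0.67 ± 0.18 SE, limma adjusted p = 0.0291). On this scale 10.4% of all tested genes were called higher. Phb2, the most abundant of the 5, stood at 0.75 deposited and 0.47 rescaled and did not pass. Afg3l2 and Spg7 passed on rescaled CPM in 4 and 6 of the 10 fits that left out a library.

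**Figure D4:**
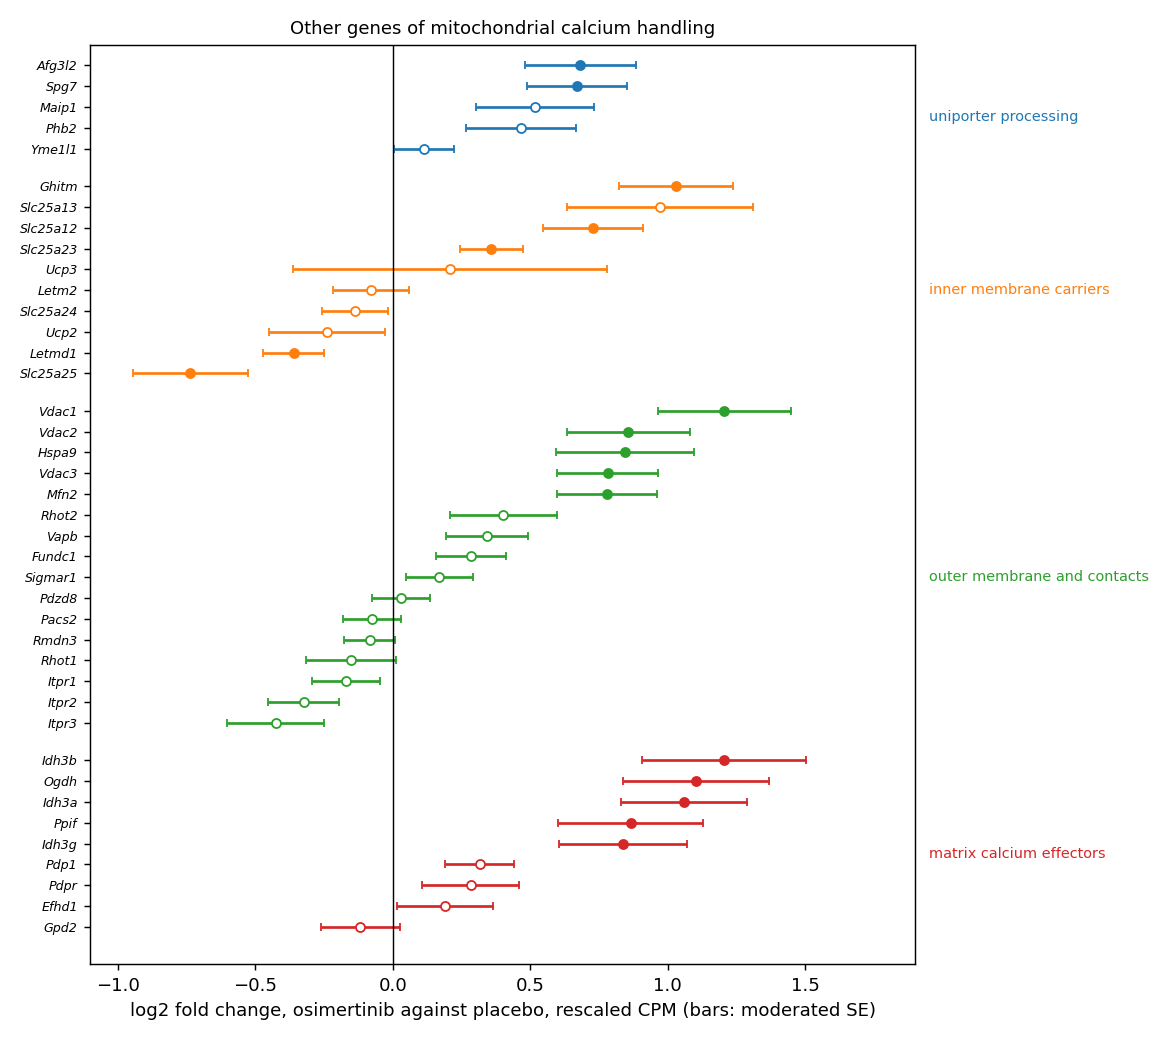
Log2 fold change of osimertinib against placebo on rescaled CPM (horizontal axis, bars are the moderated SE) for 40 other genes of mitochondrial calcium handling, grouped and coloured by list; filled points passed an adjusted p of 0.05. The filled points lie right of 0 except Slc25a25 at -0.74 and Letmd1 at -0.36.

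The 8 genes were also compared by the distance between their profiles. This was the root mean square difference of their log2 rescaled CPM over the 10 libraries after centring each gene (0 for identical profiles). The profiles were not scaled to a common spread. Genes that vary little therefore lie close together even where they do not rise and fall in the same libraries. The nearest pairs were Mcur1 with Letm1 (0.172), Mcu with Mcub (0.224), Smdt1 with Mcur1 (0.227), Micu2 with Mcur1 (0.235) and Mcu with Slc8b1 (0.239). These libraries are shared by all genes, so that the distances describe them and carry no test. Among 9046 genes compared, those nearest to Mcu were Tmem263 (0.0449), Rab5a (0.0584), Atg3 (0.0634), Snx19 (0.0736) and Slc44a1 (0.0748), against a median distance of 0.288. Those nearest to Mcub were Trim32 (0.126), Cep170b (0.132), Zfp704 (0.134), Ecm2 (0.136) and Trp53bp2 (0.137), against a median of 0.345.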

How the data were processed

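Left ventricular poly(A) RNA for 10 libraries (5 TAC placebo, 5 TAC osimertinib, groups from the sample titles) was isolated with a column kit and oligo(dT) beads, per the labels' protocols. The deposited values are CPM, made by the authors relative to the total of each library and with no factor between libraries. The design text states that reads were aligned to GRCm38 with STAR, quantified with RSEM through nf-core/rnaseq and tested with limma and voom; the submitters' processing notes name instead cutadapt 1.9, HISAT2 2.0.4, StringTie 1.3.4d, DESeq2 and hg38, a human build. Identifiers were those of mouse genes, and 98.8% (45143 of 45706) matched GENCODE M21, which gave symbols and GRCm38 coordinates.

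Low values were spaced by the CPM of 1 read, which gave the depth. Values under 200 reads were whole, to 0.01 read, in 90.7% to 93.4% of cases, so that whole reads were not recovered, and count models that need whole reads were not run. Estimated reads are CPM divided by that spacing.

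The 12350 genes that reached 1 CPM in 5 or more libraries were tested with limma 3.58.1 (R 4.3.3), with a trend in the variance, on log2(CPM + 0.5), a scale that understates changes of low genes, with Benjamini-Hochberg adjustment, on deposited and on rescaled CPM. The variance shared between genes had a prior of 72.9 degrees of freedom on deposited CPM (infinite in most fits without a library, where a gene's own spread then has no weight) and 4.45 on rescaled CPM. The fit was tested on simulated counts with known changes, drawn with the same dispersion for all genes and no difference in composition between libraries. Such counts cannot show how the fit behaves under the differences in scale and composition seen here. The 8 ratios were compared between groups by a two-sided exact permutation test over all assignments of 10 libraries to groups of 5. Mean CPM per kilobase used the union of annotated exons.

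The members and lists were chosen with earlier results of these data known. Named are all members, of each other list the genes called on either scale up to 6 by lowest p, or else the 2 most abundant, and the 5 genes nearest in profile to Mcu and Mcub. Itpr1, Itpr2 and Itpr3 were named after their values were seen. Alternatives were pseudocounts, filters, scalings, no trend, a block for the replicate number, and fits without each library in turn; voom on estimated reads, the marker covariates and the split by atrial score were added after the data were seen.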

Additional observations from a re-analysis of the deposited data

Results flagged for a closer look

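Of 48 sets of 5 libraries checked for 1 library far from the rest of its group, 4 held one, and chance gives about 1 in 20. Mcub was highest in placebo library 1, at 1.96 rescaled CPM against 1.34 to 1.51 in the others. Slc8b1 was highest in placebo library 2, at 13.6 rescaled CPM against 10.8 to 11.2. On deposited CPM, Mcu was lowest in osimertinib library 1, at 9.58 against 11.6 to 12.4, and Slc8b1 was highest in osimertinib library 4, at 14.0 against 9.70 to 10.8.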

How the results depend on the processing

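On deposited CPM 0 of the 8 genes were called higher. The count was 1 with a pseudocount of 2, with a mean of at least 5 CPM, with CPM without mitochondrial and haemoglobin genes, and with no trend, 2 with rescaling and with voom, 3 with quantile normalization, and 4 with the atrial covariate, which also called 1 lower. Leaving out a library gave 0 to 2, and with rescaling 0 to 3. Slc8b1 (0.04) reversed to -0.23 with rescaling, -0.26 with quantile normalization, -0.21 without mitochondrial and haemoglobin genes, -0.26 with the atrial and -0.13 with the cardiomyocyte covariate and -0.25 with voom, and ranged from -0.21 to 0.23 and, rescaled, from -0.30 to -0.17 without single libraries. Micu3 (-0.11) ranged from -0.32 to 0.028, and from -0.42 to -0.24 rescaled. Smdt1 reversed to -0.17 with the cardiomyocyte covariate. Within the 6 libraries with a higher atrial score (rescaled), Mcu reversed to -0.061 and Slc8b1 to -0.23, 1 of the 8 was called higher, and 1352 genes were called. Within the 4 with a low score, Slc8b1 reversed to -0.24, 3 of the 8 were called higher and 1 lower, 3 pathway genes were called lower, and 3518 genes were called. The causes were not tested.

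Pathway genes called higher (13) came to 0 with no filter, 21 with the atrial and 0 with the cardiomyocyte covariate, and to 5 to 15 (3 to 16 rescaled) without single libraries. Those called lower (0) came to 2 with rescaling, quantile normalization or voom and 4 with the atrial covariate, and to 0 to 2 rescaled without single libraries. All genes called (833) came to 0 with no filter, 2574 with rescaling, 2654 with quantile normalization, 2633 with voom, 4839 with the atrial and 123 with the cardiomyocyte covariate, and to 301 to 1150 (517 to 2789 rescaled) without single libraries. The fit with no filter tested many genes listed at 0. Ratios passing (0) came to 2 with a pseudocount of 0.5 and 0 to 4 without single libraries.

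With the longest transcript as length, mean levels per kilobase over the 10 libraries were 3.50 for Mcu, 13.1 for Micu2, 1.54 for Micu3, 87.1 for Smdt1, 5.40 for Mcur1, 3.67 for Slc8b1 and 7.46 for Letm1.

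With the replicate number as a block, 1 of the 8 genes was called higher (3 with rescaling), 1 pathway gene lower with rescaling, Slc8b1 stood at -0.23 with rescaling, and 1320 genes were called in all (2949 with rescaling). The labels do not pair the libraries, and the deviations of same-numbered libraries correlated at 0.428, 0.245, 0.464, -0.339 and -0.162 (rescaled), with numbers 1 to 3 closest to their own number and 4 and 5 to each other's. Sign flips over these pairs passed 0 ratios, where the smallest p possible is 0.0625.

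Depth limited Mcub (13 to 45 estimated reads) and Micu3 (41 to 96) most.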
